A study of Mus musculus with 2 samples.

Results

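Genes known from the ciliary body, iris and peripheral eye were followed cell by cell in a single-cell RNA sequencing (scRNA-seq) study of mouse retinal pigment epithelium (RPE) cells. They were Optc, Zic1, Zic2, Zic4, Msx1, Wfdc1, Aqp4, Penk, Defb2 and Crhbp, 10 of the 27998 gene rows of the deposited matrices, and they were chosen by symbol with their counts in these cells already known. For this reason their levels and their co-detection with Mlana and Gpx3 are given as a description and without a test. A unique molecular identifier (UMI) tags a captured RNA molecule, and UMIs were the counts used throughout. In R1, 9 of the 10 had a UMI (all except Zic2), in R2 also 9 (all except Msx1), and 8 were found in both mice.

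The samples R1 and R2 were the RPE cells of 2 male C57BL/6J mice at postnatal day 36 (given as 4 to 5 weeks old in the characteristics), with no genetic change or treatment, so the study has a single condition and each mouse is a replicate. Eyecups, from which cornea, iris, lens and neural retina had been taken away, were treated with trypsin, the cells of each mouse's right and left eye were combined, and calcein-positive, DAPI-negative cells were sorted before 10x Genomics capture. The eye was cut open below the limbus, and according to the study this cut left the iris, the ciliary body and the ciliary margin out of the eyecups that were used.

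The ciliary epithelium is the folded forward continuation of the retina and RPE. Its pigmented layer is continuous with the RPE, its non-pigmented layer with the neural retina, and the whole secretes aqueous humour and lays down fibres and matrix of the zonule and the vitreous. The transcription factors among the members are the zinc finger proteins Zic1, Zic2 and Zic4, which act in dorsal neural and eye patterning, and the homeodomain protein Msx1, a target of BMP signalling. Optc encodes opticin, a small leucine-rich proteoglycan of the vitreous made by the non-pigmented ciliary epithelium. Penk encodes the precursor of the enkephalin opioid peptides, Crhbp a secreted protein that binds corticotropin-releasing hormone, Defb2 an antimicrobial beta-defensin, Wfdc1 a secreted whey acidic protein-domain protein, and Aqp4 a water channel of glia and other epithelia. Of the reference genes used here, Ttr encodes transthyretin, which RPE cells make in great amounts, Mlana a melanosome protein found in pigment cells, and Gpx3 a secreted glutathione peroxidase.

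Zic1 and Zic4 lie beside each other on chromosome 9 and shared a larger part of their cells than any other pair of members in R1, so the promoter windows of this pair are shown, followed by those of Optc and Crhbp, the secreted members for which RefSeq windows were at hand. Each window runs from 250 bases before to 50 bases after the RefSeq start site in the build GRCm38.p6 and is written 5′ to 3′ on the strand of the gene, in lower case with the motifs found in capitals.
Zic1 promoter, chr9:91365719-91366018, minus strand: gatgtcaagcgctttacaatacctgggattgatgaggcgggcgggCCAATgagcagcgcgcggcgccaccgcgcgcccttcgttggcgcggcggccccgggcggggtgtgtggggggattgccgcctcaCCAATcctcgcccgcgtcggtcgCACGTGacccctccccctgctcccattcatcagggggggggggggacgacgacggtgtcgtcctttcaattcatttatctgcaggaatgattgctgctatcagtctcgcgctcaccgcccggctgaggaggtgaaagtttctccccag
Zic4 promoter, chr9:91368722-91369021, plus strand: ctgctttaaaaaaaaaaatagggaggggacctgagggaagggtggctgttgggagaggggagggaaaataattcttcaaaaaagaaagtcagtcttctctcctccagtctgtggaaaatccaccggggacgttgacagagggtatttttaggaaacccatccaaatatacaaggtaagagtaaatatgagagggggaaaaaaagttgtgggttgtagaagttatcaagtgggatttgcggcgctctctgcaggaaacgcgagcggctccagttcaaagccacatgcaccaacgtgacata
Optc promoter, chr1:133907950-133908249, minus strand: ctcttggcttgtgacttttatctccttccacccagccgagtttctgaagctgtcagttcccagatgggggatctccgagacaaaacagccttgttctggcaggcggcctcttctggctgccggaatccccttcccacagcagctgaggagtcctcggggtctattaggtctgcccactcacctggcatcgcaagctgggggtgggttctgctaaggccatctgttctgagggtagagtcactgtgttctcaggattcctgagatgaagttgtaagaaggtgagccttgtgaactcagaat
Crhbp promoter, chr13:95444782-95445081, minus strand: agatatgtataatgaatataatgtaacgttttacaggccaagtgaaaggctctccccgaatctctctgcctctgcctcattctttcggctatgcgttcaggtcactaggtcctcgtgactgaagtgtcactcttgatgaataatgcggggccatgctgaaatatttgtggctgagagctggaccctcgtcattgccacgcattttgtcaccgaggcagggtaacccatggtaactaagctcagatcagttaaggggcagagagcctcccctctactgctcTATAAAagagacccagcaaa
The motifs searched, on both strands, were the CCAAT box (CCAAT), the TATA box (TATAAA), the E-box (CACGTG), a homeodomain core (TAATTA) and a Zic-type motif (CAGCAGG), and no match overlapped another. In the Zic1 window the capitals mark CCAAT boxes that begin at -205 and -121 from the start site and the E-box CACGTG that begins at -98, and in the Crhbp window they mark TATAAA, which begins at position 31 after the start site. Neither the Zic4 nor the Optc window held any of these letters. Over all 32817 windows of the same length, 37.4% held the CCAAT box, 13.6% the TATA box, 7.15% the E-box, 10.5% the Zic-type motif and 5.30% the homeodomain core. The RefSeq start sites of Zic1 and Zic4 lie 3204 bases apart and point away from each other. The Zic1 window was GC-rich (65.3%), the Zic4 window was not (46%), and the median over all windows was 52.7%.

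In the GENCODE annotation of GRCm38, Zic1 spans chr9:91358058-91365810 on the minus strand and Zic4 chr9:91362413-91389348 on the plus strand, so that 3398 bases are common to both. The RefSeq start site of Zic4 used above, at 91368972, lies outside this shared stretch. Whether the counting used the strand is not given in the sources used here, nor is how reads from the shared bases were assigned. The annotated transcript ends, near which 3′ libraries are read, lie 4355 bases (Zic1) and 23538 bases (Zic4) outside the shared stretch. Optc spans chr1:133897199-133907999, Penk chr4:4133531-4138819, Msx1 chr5:37820485-37824583 and Crhbp chr13:95431371-95444924, all on the minus strand. Defb2 spans chr8:21839926-21843482, Wfdc1 chr8:119666365-119688222 and Zic2 chr14:122475435-122479852, all on the plus strand.

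Of 2844 and 2994 deposited cells, 2671 cells of R1 and 2847 of R2 were kept after the filters. Cells with Ttr under 3% of their UMIs (low-Ttr cells) numbered 59 in R1 and 19 in R2, those with at least 5% (high-Ttr cells) 2612 and 2828, and no kept cell fell in between: the highest low-Ttr cell stood at 2.66% and the lowest high-Ttr cell at 5.14%. Low-Ttr cells were shallower, with median depths of 3200 and 3836 UMIs against 8416.5 and 7687 in high-Ttr cells, and their summed depth was 192400 and 91115 UMIs against 23723208 and 26871048. A total of 12 cell barcodes occurred in both mice, and 0 of them belonged to a low-Ttr cell. High-Ttr cells carried the RPE genes, with Rpe65 in 2611 of 2612 and 2828 of 2828 cells, whereas Rpe65 was found in 31 of 59 and 4 of 19 low-Ttr cells. The intervals given with shares and levels are 95% exact (Clopper-Pearson or Poisson) intervals and cover counting error only.

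The members were concentrated in the low-Ttr cells of each mouse. In R1, 143 of the 177 member UMIs in kept cells (80.8%) came from the 59 low-Ttr cells, and in R2 324 of 345 (93.9%) came from 19. At least 1 member was detected in 13 of 59 low-Ttr cells of R1 (22.0%, 12.3 to 34.7) against 29 of 2612 high-Ttr cells (1.11%, 0.745 to 1.59), although the latter were deeper. The same shares in R2 were 9 of 19 (47.4%, 24.4 to 71.1) and 17 of 2828 (0.601%, 0.351 to 0.961). With every cell thinned to 2000 UMIs, which left out no cell, the shares were 20.3% against 0.306% in R1 and 42.1% against 0.248% in R2. Thus the share was higher in low-Ttr cells of each mouse at equal depth as well.

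**Figure D1:**
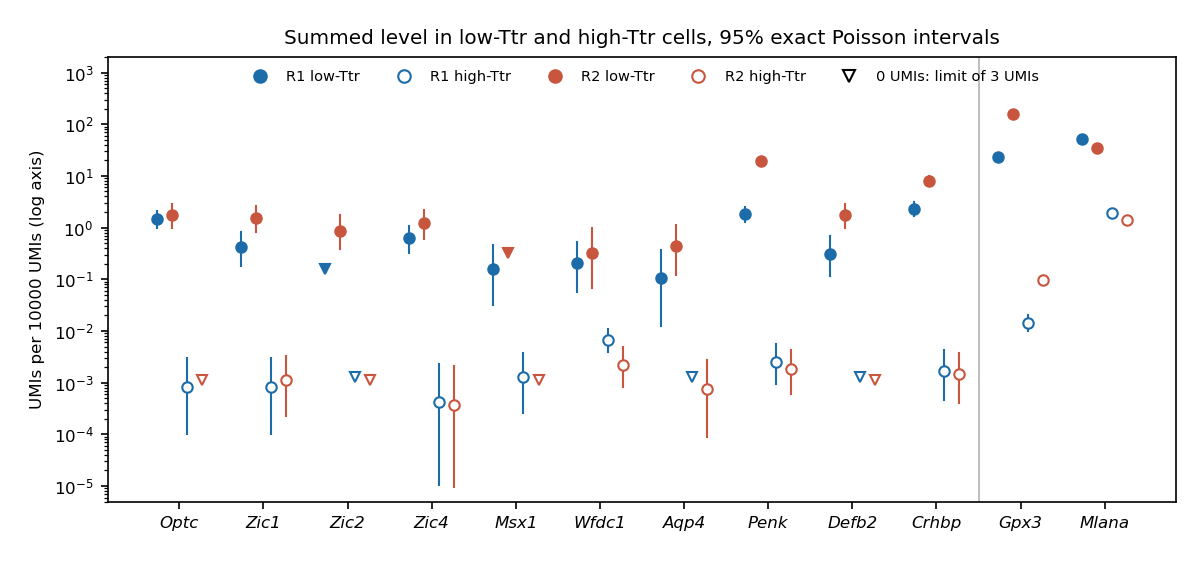
Level of each member, Gpx3 and Mlana as UMIs per 10000 UMIs (log axis) in the summed low-Ttr (filled) and high-Ttr (open) cells of R1 (blue) and R2 (red). Bars are 95% exact Poisson intervals and triangles mark the limit of 3 UMIs where none was counted. Penk and Crhbp had the highest member levels in low-Ttr cells of each mouse, and Wfdc1 had the highest member level in high-Ttr cells of each mouse.

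Among the transcription factors, Zic1 had 8 UMIs in 5 low-Ttr cells of R1 and 14 UMIs in 5 low-Ttr cells of R2, against 2 and 3 UMIs in all high-Ttr cells. Its level in low-Ttr cells was 0.416 and 1.54 UMIs per 10000 UMIs, which was 493 times (98.4 to 4768) and 1376 times (384 to 7469) that of high-Ttr cells. Zic4 had 12 UMIs in 6 cells of R1 and 11 UMIs in 4 cells of R2, against 1 high-Ttr UMI in each mouse. These values place both genes in nearly the same handful of cells, and no low-Ttr cell held more than 9 UMIs of Zic1 or 4 of Zic4. Zic2 was counted in R2 alone, with 8 UMIs of which 7 came from the cell that also had the most Zic1, and its level there was at least 786 times that of the high-Ttr cells, which had 0. In R1 its count of 0 allows a low-Ttr level of up to 0.156 per 10000 UMIs, below the 0.878 of R2. That R2 level rests mostly on 1 cell, and each mouse is 1 library, so no difference between the mice is read from it. Msx1 had 3 UMIs in 3 low-Ttr cells and 3 UMIs in 3 high-Ttr cells of R1 and 0 in R2, where the limit in low-Ttr cells is 0.329 per 10000 UMIs, so that no difference between the mice was detectable at this depth. Zic5, of the same family, had 3 UMIs in 2 low-Ttr cells of R1 and 1 UMI in R2, and no UMI in a high-Ttr cell.

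Penk was the most abundant member in R2. It had 35 UMIs in 7 of 59 low-Ttr cells of R1 and 179 UMIs in 7 of 19 low-Ttr cells of R2, against 6 and 5 UMIs in high-Ttr cells. The low-Ttr level of this enkephalin precursor was 1.82 and 19.6 UMIs per 10000 UMIs, 719 times (299 to 2092) and 10558 times (4441 to 32913) the high-Ttr level. These sums rest on few cells: 21 of the R1 UMIs and 90 of the R2 UMIs came from the highest cell of each mouse. Crhbp had 45 UMIs in 8 cells of R1 and 73 UMIs in 7 cells of R2, against 4 and 4 UMIs in high-Ttr cells. The highest cell of each mouse held 18 and 34 of these low-Ttr UMIs. That is 40% and 46.6%, against 60% and 50.3% for Penk. Its low-Ttr level of 2.34 and 8.01 UMIs per 10000 UMIs was 1387 times (506 to 5311) and 5382 times (2015 to 20280) the high-Ttr level. Between the mice, the levels of Penk and Crhbp in low-Ttr cells were higher in R2, and their Poisson intervals did not overlap, but with 1 library per mouse this compares those libraries alone. The cells with 3 or more members, described below, made up 8 of 59 low-Ttr cells in R1 and 6 of 19 in R2. Within them the mean level of Crhbp was 11.8 ± 10.1 and 14.3 ± 7.53 UMIs per 10000 UMIs (SD over cells), so the mice lay within the spread between cells, and that of Penk was 10.3 ± 15.6 and 40.2 ± 31.3.

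Optc, the vitreous proteoglycan, had 28 UMIs in 2 low-Ttr cells of R1 and 16 UMIs in 3 low-Ttr cells of R2. In R1, 27 of the 28 came from a single cell, which also held the most Penk of that mouse (21 UMIs). High-Ttr cells had 2 Optc UMIs in R1, a ratio of levels of 1726 (435 to 14954), and 0 in R2, where the low-Ttr level was at least 1573 times higher. Defb2 was found in low-Ttr cells and in no kept high-Ttr cell of either mouse, with 6 UMIs in 3 cells of R1 and 16 UMIs in 4 cells of R2. Its levels were at least 247 and at least 1573 times those of high-Ttr cells, for which 3 UMIs served as the limit. An R1 cell with 7.32% Ttr that the doublet score removed held 1 Defb2 UMI. Aqp4 was present in 1 low-Ttr cell of each mouse, with 2 and 4 UMIs, and had 0 UMIs in high-Ttr cells of R1 and 2 UMIs in 1 such cell of R2. Both Aqp4-containing low-Ttr cells also held Penk, Crhbp and Gpx3.

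Wfdc1 was the exception among the members. It had 4 UMIs in 4 low-Ttr cells and 16 UMIs in 11 high-Ttr cells of R1, and 3 UMIs in 2 low-Ttr cells and 6 UMIs in 5 high-Ttr cells of R2. Hence only 20% and 33.3% of its kept UMIs were in low-Ttr cells, while the share for the other members with more than 6 kept UMIs ranged from 80% to 100%. Msx1 in R1 and Aqp4 in R2, with 6 kept UMIs each, had 50% and 66.7%. Per 10000 UMIs the low-Ttr level was still 30.8 times (7.50 to 95.6) and 147 times (23.9 to 690) the high-Ttr level. Of its 4 R1 low-Ttr cells 3, and 1 of its 2 R2 cells held no other member. Of these, 2 R1 cells and the R2 cell carried 3, 6 and 5 of the 6 fibroblast markers and neither Mlana nor Gpx3. The other members were not counted in such cells. The low-Ttr cells with 3 or more of the fibroblast or of the microglia markers (5 in R1, 3 in R2) held 2 and 1 member UMIs, all of Wfdc1.

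**Figure D2:**
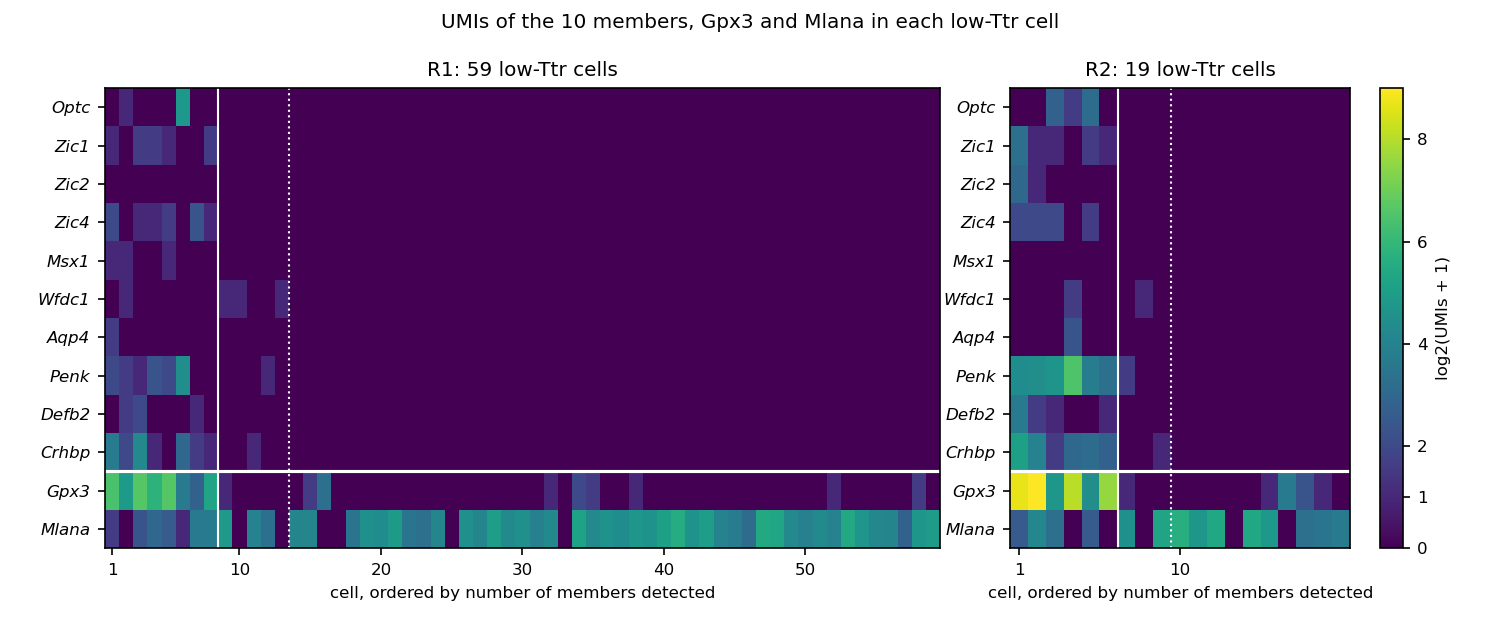
UMIs, as log2(UMIs + 1), of the 10 members and, below the white line, of Gpx3 and Mlana in the 59 low-Ttr cells of R1 and the 19 of R2, ordered by the number of members detected. Solid vertical lines close the cells with 3 or more members (8 and 6) and dotted lines the cells with 1 (5 and 3). Gpx3 is high to the left of the solid line and Mlana is spread over the cells to its right.

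The members were not scattered over the low-Ttr cells. In R1 8 cells and in R2 6 cells held between 3 and 6 members, 5 and 3 cells held 1, 46 and 10 held none, and no cell held 2. The 8 and 6 cells contained 138 of the 143 and 320 of the 324 member UMIs of low-Ttr cells. In high-Ttr cells, by contrast, 29 cells of R1 and 17 of R2 held 1 member and none held more, and no member exceeded 3 UMIs in any of them. The grouping at 3 members was made after these counts were seen and is used below as a description. At thinned depth 6 of the 8 and 6 of the 6 cells still held 3 or more members. Cells with 3 or more members had a median depth of 3610.5 and 6792.5 UMIs, low-Ttr cells with no member a depth of 3190 and 3243.5, and the part of depth in the number of members per cell was tested only by this thinning. None of the low-Ttr cells was removed by the doublet score. Cells with 3 or more members had a low Ttr share, 0.364% to 1.00% (R1) and 0.282% to 0.755% (R2). A pair of low-Ttr cells would also have low Ttr, and random cell pairs seldom give one. Every removed cell had at least 6.48% (R1) or 6.80% (R2) Ttr. Doublets of 2 low-Ttr cells were therefore not tested, here or for the Mlana and Gpx3 co-detection below. In R2, cells with 3 or more members held 13692, 10880, 9332, 4253, 4105 and 3976 UMIs, and other low-Ttr cells at most 4532. In R1, cells with 3 or more members held 2148 to 6628, and those with no member 2200 to 5221.

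**Figure D3:**
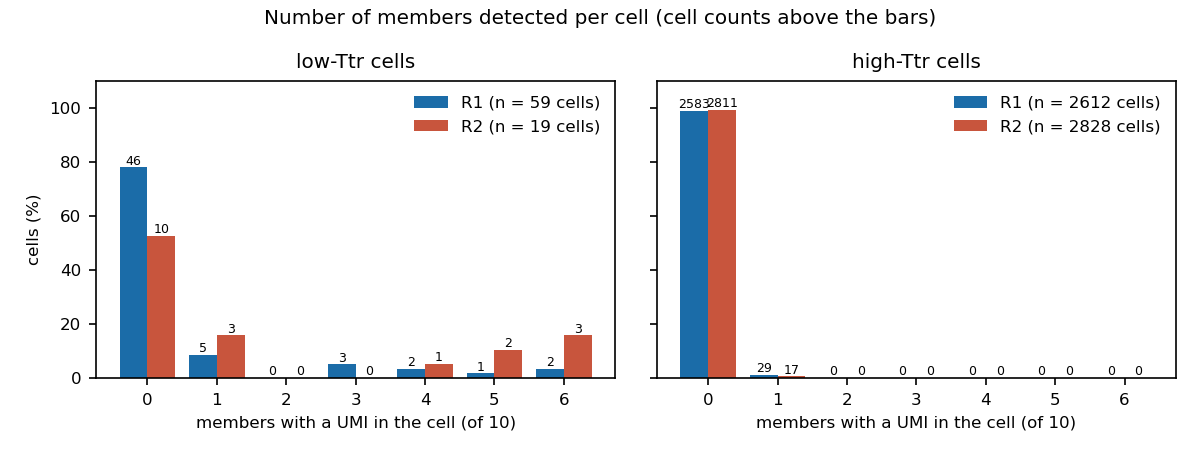
Share of cells (%) by the number of members with a UMI, in low-Ttr cells (left) and high-Ttr cells (right) of R1 (blue) and R2 (red), with cell counts above the bars. Low-Ttr cells held 0, 1 or at least 3 members, whereas no high-Ttr cell held more than 1.

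Single cells show the combinations. The low-Ttr cell of R1 with the most UMIs (6628) held 12 UMIs of Crhbp, 3 of Penk, 3 of Zic4, 2 of Aqp4, 1 of Zic1 and 1 of Msx1, along with 85 UMIs of Gpx3 and 2 of Mlana. Another low-Ttr cell of R1 held 18 UMIs of Crhbp, 3 of Defb2, 2 of Zic1, 1 of Zic4 and 1 of Penk, with 99 UMIs of Gpx3 and 4 of Mlana. Both therefore joined Zic genes with secreted peptide-pathway genes. The deepest low-Ttr cell of R2 (13692 UMIs) held 34 UMIs of Crhbp, 20 of Penk, 12 of Defb2, 9 of Zic1, 7 of Zic2 and 3 of Zic4, with 418 UMIs of Gpx3 and 5 of Mlana. A different combination was seen in the R2 cell with 90 UMIs of Penk. It had 7 UMIs of Crhbp, 4 of Aqp4, 2 of Optc and 2 of Wfdc1, 269 UMIs of Gpx3, and no UMI of Mlana, Zic1, Zic2 or Zic4. The Optc-rich cell of R1 likewise had no UMI of Zic1, Zic2 or Zic4. In R1 no cell held Optc together with Zic1 or Zic4, while in R2 2 of the 3 Optc cells held both.

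Of all pairs of members in R1, Zic1 and Zic4 had the highest Jaccard index, the cells with both over the cells with either. They shared 5 of 6 cells in R1 (0.833) and 4 of 5 in R2 (0.80). Zic1 and Defb2 had the same index in R2 (0.80), but in R1 they shared only 1 of 7 cells (0.143). Penk and Crhbp shared 5 of 10 cells in R1 and 6 of 8 in R2. Among genes found in at least 5 low-Ttr cells of R1, the detection pattern most like that of Zic4 in R1 was that of Zic1. Next came Best2, a chloride channel of the non-pigmented ciliary epithelium (0.714 in R1 and 0.667 in R2), and Col9a1, a chain of the vitreous collagen IX (0.625 and 0.60). Col9a1 was also nearest to Penk (0.75 and 0.571) and to Crhbp (0.667 and 0.571), followed for both by Nkd2, an inhibitor of Wnt signalling (0.714 with Penk and 0.625 with Crhbp in R1, 0.286 with each in R2). After Zic4, the gene nearest to Zic1 was Rab38, a small GTPase of melanosome traffic (0.667 and 0.50). These indices are counted over the 59 and 19 low-Ttr cells, which share a library within each mouse.

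Gpx3 accompanied the members in every cell with 3 or more of them. All 8 such cells of R1 and all 6 of R2 held Gpx3, with 6 to 99 UMIs in R1 and 21 to 507 UMIs in R2. The mean level was 136.7 ± 91.7 UMIs per 10000 UMIs (SD, n = 8 cells) and 272.3 ± 182.8 (SD, n = 6 cells), against 1.62 ± 6.18 in the 46 and 5.70 ± 12.3 in the 10 low-Ttr cells with no member. Gpx3 was detected in 8 of these 46 (17.4%, 7.82 to 31.4) and in 4 of these 10 (40%, 12.2 to 73.8), and in 1.19% and 2.86% of high-Ttr cells. In R2 the levels of the 2 low-Ttr groups did not overlap (lowest 52.8 with members, highest 39.4 without), and in R1 they overlapped (lowest 27.0, highest 40.7). The cells with no member included 3 in R1 and 2 in R2 that carried 3 or more fibroblast or microglia markers, and the highest of R2 was one of them, with 5 of the 6 fibroblast markers, no Mlana and 12 of the 18 Gpx3 UMIs of its group. Without these the means with no member were 1.73 ± 6.38 (n = 43 cells) and 2.20 ± 3.79 (n = 8 cells), and the highest R2 cell stood at 10.8. The highest R1 cell with no member stayed among these 43. It held 9 of the 21 Gpx3 UMIs of its group, no Mlana and 3 of the 6 Muller glia or astrocyte markers. Of the 444 and 1449 Gpx3 UMIs of low-Ttr cells, 422 and 1430 came from the cells with 3 or more members.

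Mlana went the other way. It was detected in 7 of 8 and 4 of 6 cells with 3 or more members, and in 42 of 46 and 8 of 10 low-Ttr cells with none. Its mean level was 18.6 ± 21.5 UMIs per 10000 UMIs (SD, n = 8 cells) and 8.84 ± 8.89 (SD, n = 6 cells) in the former, and 62.4 ± 32.7 and 63.2 ± 51.9 in the latter, or 66.7 ± 29.2 and 79.0 ± 45.2 without those carrying fibroblast or microglia markers. High-Ttr cells stood lower still, at a mean of 2.16 and 1.48, so the cells with 3 or more members lay between. Both Mlana and Gpx3 were found together in 7 of 8 (87.5%, 47.3 to 99.7) and 4 of 6 (66.7%, 22.3 to 95.7) of them, in 7 of 46 and 3 of 10 low-Ttr cells with no member, and in 0.804% and 1.66% of high-Ttr cells. Counted over every low-Ttr cell with at least 1 member, both genes were present in 8 of 13 (61.5%, 31.6 to 86.1) and 5 of 9 (55.6%, 21.2 to 86.3).

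**Figure D4:**
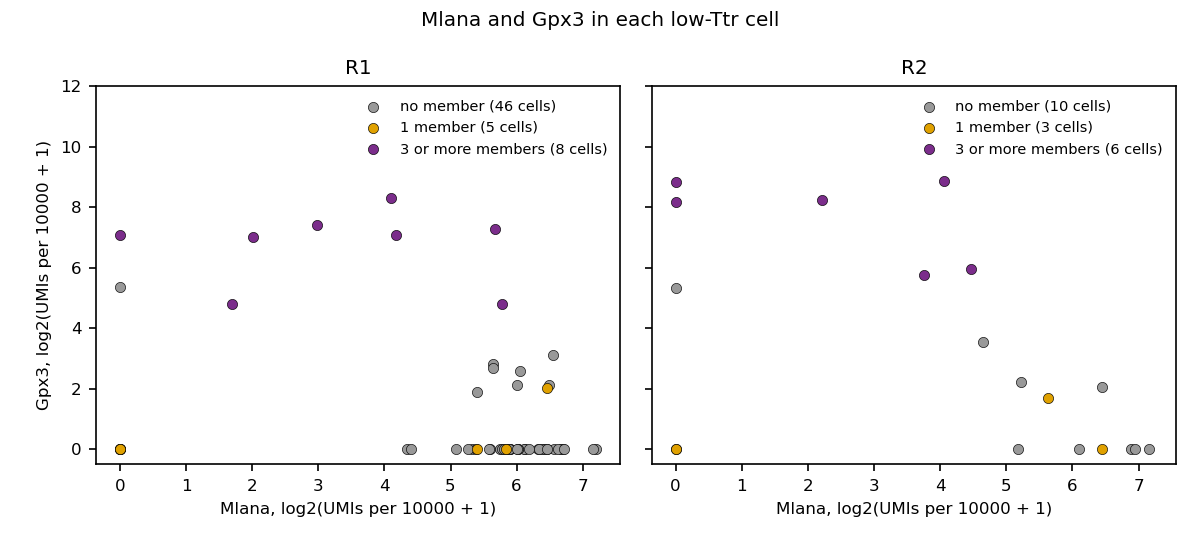
Mlana (x axis) and Gpx3 (y axis) in each low-Ttr cell of R1 and R2, as log2(UMIs per 10000 UMIs + 1), with grey points for no member, yellow for 1 and purple for 3 or more. The purple points lie at high Gpx3 over a wide range of Mlana, and most grey points lie at high Mlana with Gpx3 at or near 0.

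By member, Zic1 and Zic4 were nearly always in cells with both reference genes. All 5 Zic1 cells and all 6 Zic4 cells of R1 held Mlana and Gpx3, and so did 4 of 5 and 4 of 4 in R2. For Crhbp the counts were 6 of 8 and 4 of 7, and for Penk 5 of 7 and 5 of 7. Optc shared a cell with both in 1 of 2 and 2 of 3 cells, Defb2 in 2 of 3 and 3 of 4, Msx1 in 2 of 3 in R1, Zic2 in 2 of 2 in R2, and Aqp4 in 1 of 1 and 0 of 1. Wfdc1 stood lowest, with 1 of 4 and 0 of 2. The smallest of these denominators allow almost any share, and the members overlap in the same 14 cells, so the counts are not independent of each other.

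The high-Ttr cells with a member UMI were examined for Gpx3 and Mlana as well. Mlana was found in 20 of the 29 member-positive high-Ttr cells of R1 (69.0%, 49.2 to 84.7), against 60.1% of all high-Ttr cells. For R2 the values were 10 of 17 (58.8%, 32.9 to 81.6) against 47.0%. The 29 cells of R1 included 0 with Gpx3 (interval of 0 to 11.9%) against 31 of 2583 of those with no member. In R2, 5 of 17 held Gpx3 (29.4%, 10.3 to 56.0), each with at least 2 UMIs and with up to 20, against 2.70% of the 2811 without a member. The intervals of the mice overlap, and each mouse is 1 library.

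Other genes of the ciliary epithelium were then examined in a list of 13. Best2 had 15 UMIs in 6 of 8 and 24 UMIs in 6 of 6 cells with 3 or more members, none in any other low-Ttr cell, and 2 and 1 UMIs in high-Ttr cells. Col9a1 had 21 UMIs in 7 of 8 and 22 UMIs in 4 of 6, again none in other low-Ttr cells, and 12 and 34 UMIs in high-Ttr cells. Both were also among the nearest genes by Jaccard index above, so this restriction is not a separate observation. Mfap2, a microfibril protein of the zonule, was found in all 8 and in 5 of 6 at 14.2 and 6.92 UMIs per 10000 UMIs, against 0.276 and 0 in low-Ttr cells with no member. High-Ttr cells held 159 and 149 UMIs of Mfap2. Col18a1, the precursor of endostatin, stood at 4.21 and 5.41 against 0.0689 and 0, and was also common in high-Ttr cells, at 1.78 and 1.37. Gja1 and Tgfb2, with the most low-Ttr UMIs of the list, separated the low-Ttr groups less. Gja1 stood at 12.9 and 10.6 against 9.58 and 6.61, and Tgfb2 at 5.50 and 6.27 against 3.03 and 2.40. Thus 11 of the 13 genes had a UMI in the cells with 3 or more members in R1 and 12 of 13 in R2. The counts were 9 and 5 of 13 in low-Ttr cells with no member and 12 of 13 in the far more numerous high-Ttr cells of each mouse. The low-Ttr cells with no member held more UMIs in sum in R1 (145122 against 30897) but fewer in R2 (33273 against 46238). The part of depth in these gene counts was not tested. Carbonic anhydrase 2 (Car2) had the opposite order, at 0 and 0.865 UMIs per 10000 UMIs in the former and 2.96 and 7.81 in the latter, and the water channel gene Aqp1 had 0 UMIs and 1 UMI in low-Ttr cells.

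**Figure D5:**
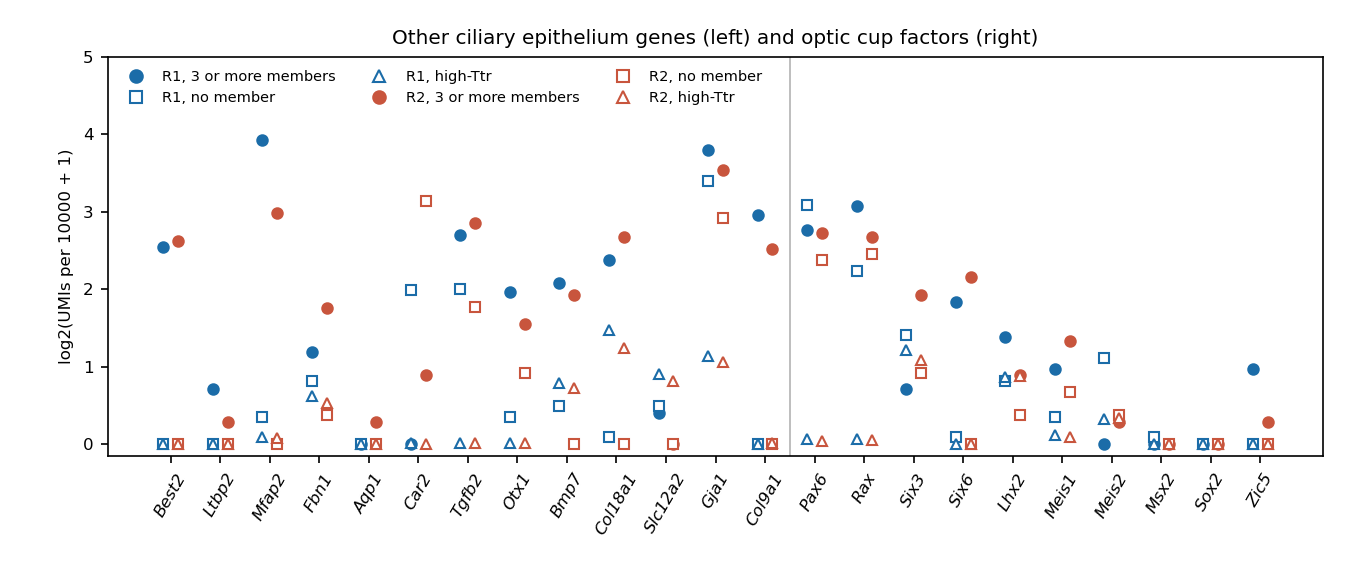
Levels, as log2(UMIs per 10000 UMIs + 1), of 13 other ciliary epithelium genes (left of the line) and 10 optic cup factors (right) in low-Ttr cells with 3 or more members (filled circles), low-Ttr cells with no member (open squares) and high-Ttr cells (open triangles) of R1 (blue) and R2 (red). Best2, Mfap2, Col9a1 and Six6 are high in the filled circles and at or near 0 in the squares, Pax6 and Rax are similar in both, and Car2 is higher in the squares.

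Of the optic cup and ciliary margin factors, Six6 followed the members, with 8 of its 9 low-Ttr UMIs in R1 and all 16 in R2 in the cells with 3 or more members, against 0 and 2 UMIs in high-Ttr cells. Pax6, a master regulator of eye development, did not follow them, with 5.83 and 5.62 UMIs per 10000 UMIs in cells with 3 or more members and 7.51 and 4.21 in low-Ttr cells with none. Rax was likewise present in both (7.44 and 5.41, against 3.72 and 4.51). Dkk3, a secreted glycoprotein, was detected in all 14 cells with 3 or more members at a mean of 31.9 ± 15.0 and 24.1 ± 16.0 UMIs per 10000 UMIs, against 13.4 ± 8.91 and 13.2 ± 13.4 in low-Ttr cells with none (SD over cells).

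Few UMIs of partners of the peptide-pathway members were counted in low-Ttr cells. In a list of 12 genes of the opioid peptide and corticotropin-releasing hormone systems, Pdyn, Pcsk1, Pcsk2, Oprm1, Oprd1, Oprk1, Crh, Ucn and Crhr1 had no UMI in any low-Ttr or high-Ttr cell. Carboxypeptidase E (Cpe), which trims prohormone peptides, was abundant in high-Ttr cells (6.92 and 6.70 UMIs per 10000 UMIs) and scarce in low-Ttr cells (0.728 and 0.768), where 2 of 8 and 1 of 6 cells with 3 or more members had it. Crhr2, a receptor of the CRH family, had 394 and 373 UMIs in high-Ttr cells and 0 in low-Ttr cells. Its high-Ttr level of 0.166 and 0.139 UMIs per 10000 UMIs lies close to or under the low-Ttr limits of 0.156 and 0.329, so an absence from low-Ttr cells could not be resolved at this depth. The same holds for Pomc, with 147 and 198 UMIs in high-Ttr cells (0.0620 and 0.0737 per 10000 UMIs) and 0 in low-Ttr cells. These low-Ttr limits also apply to the genes above without a UMI. In a list of 10 proteoglycan and vitreous matrix genes related to Optc, the cells with 3 or more members held 1 UMI in R1 (of Fmod) and 22 UMIs in R2 (among them 8 of Ogn, 8 of Fmod and 4 of Col11a1). No UMI of Col2a1 or Epyc was counted in low-Ttr cells, and Dcn and Lum had 0 UMIs in the cells with 3 or more members.

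Markers of other cells were counted in the same cells. The 8 and 6 cells with 3 or more members held 0 UMIs of the 8 microglia or macrophage markers, of the 6 endothelial markers, of the 8 rod markers and of the 5 corneal or conjunctival epithelium markers in each mouse, and 1 UMI of the 6 fibroblast markers (Col1a2) in each. Melanocyte markers gave 2 UMIs, both of Sox10, in R1 and 0 in R2, smooth muscle markers 0 and 4, and lens markers 4 and 1, all of Bfsp2. The glial list reached 167 and 263 UMIs, of which 165 and 255 were Glul (glutamine synthetase), at 53.4 and 55.1 UMIs per 10000 UMIs against 13.4 and 11.4 in low-Ttr cells with no member. Gfap, Kcnj10 and Pax2 were at 0 in the cells with 3 or more members of each mouse. Slc1a3 had 2 UMIs in 1 of these cells in R1 and 7 UMIs in 2 of them in R2. That is 0.647 and 1.51 UMIs per 10000 UMIs, against 0.276 and 0 in low-Ttr cells with no member. Abca8a had 0 UMIs and 1 UMI in the cells with 3 or more members. RPE genes were low in both low-Ttr groups, with the 8 RPE genes summing to 46.3 and 22.9 UMIs per 10000 UMIs in cells with 3 or more members, 50.1 and 35.5 in cells with none, and 482 and 536 in high-Ttr cells.

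Pigment genes separated the low-Ttr cells, in the manner of Mlana. The 9 pigment genes summed to 88.4 and 58.8 UMIs per 10000 UMIs in cells with 3 or more members, 283 and 276.5 in cells with none, and 17.9 and 12.8 in high-Ttr cells. Dct, a melanin-synthesis enzyme, made up the largest part of the difference (22.3 and 22.1 against 150 and 136). Tyrp1 and Trpm1 did not share it, with Tyrp1 at 15.5 and 11.7 against 14.1 and 13.2 and Trpm1 at 25.6 and 11.7 against 17.2 and 8.11.

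For the comparison across all genes, the UMIs of low-Ttr and of high-Ttr cells were summed in each mouse and compared in edgeR with the mouse as a block. Of 11484 genes tested, 1206 (10.5%) passed an adjusted p of 0.05 and 491 (4.28%) did so with a higher level in low-Ttr cells. The filter on low counts was passed by 7 members, and all 7 were called higher, while Zic2, Msx1 and Aqp4 were dropped by it. Since the members were chosen on this contrast, and a gene this rare in high-Ttr cells passes the filter only through its low-Ttr counts, nothing is read from that number. Fitted log2 fold changes ranged from 5.15 ± 1.64 (SE, derived from the test statistic) for Wfdc1 to 11.02 ± 0.57 for Penk, leaving out Defb2, whose high-Ttr counts were 0. The median over all 11484 genes was -0.34.

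The same fit is given for the lists, again as a description because the low-Ttr and high-Ttr cells differ by construction. List genes rare in high-Ttr cells, such as Best2 (2 and 1 UMIs) and Six6 (0 and 2), also pass the filter only through their low-Ttr counts. They could be called higher or not at all, so nothing is read from the number of list genes called higher. Of the 13 other ciliary epithelium genes 11 were tested, and 7 were called higher in low-Ttr cells (Best2, Car2, Col9a1, Gja1, Mfap2, Otx1 and Tgfb2), 1 was called lower (Slc12a2, the chloride cotransporter that loads ciliary cells, log2 fold change -2.60 ± 0.65) and 3 were not called, with a median of 4.99. Best2 had a log2 fold change of 10.36 ± 1.00, Col9a1 6.88 ± 0.74 and Mfap2 4.99 ± 0.47. Without the 8 and 6 cells with 3 or more members, a setting added after the data were seen, 796 of 11380 genes (6.99%) were called, 334 (2.93%) of them higher and 462 (4.06%) lower. Then 9 genes of the list were tested, 4 were called higher (Car2, Gja1, Otx1 and Tgfb2) and 2 lower (Col18a1 and Slc12a2), and Best2 and Col9a1 no longer passed the filter. Mfap2 had in this setting a log2 fold change of 2.29 with an adjusted p of 0.33. Of the 10 optic cup factors 7 were tested, 3 were called higher (Pax6, Rax and Six6) and none lower, with a median of 2.22. In the peptide list 3 of 12 genes were tested and Cpe was called lower, at -3.91 ± 0.44. For the lists of other cell types, 6 of 6 fibroblast genes and 6 of 7 microglia genes were called higher. Without the cells carrying 3 or more of those markers, 1 and 3 of these genes were still tested and none was called higher. The cells were left out for these same markers, so nothing is read from that loss. In that setting 1002 of 11380 genes (8.8%) were called, 360 (3.16%) of them higher and 642 (5.64%) lower, and the 7 calls higher in the ciliary list were the same genes. Wfdc1 then had a log2 fold change of 4.49 with an adjusted p of 0.19. The cells left out held 2 and 1 of its low-Ttr UMIs, so nothing is read from that change either. In the glial list 2 of 6 genes were tested, and Slc1a3 was called higher, at 6.22 ± 1.43. It was also called without the fibroblast- and microglia-marked cells, but not without the cells with 3 or more members.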

How the data were processed

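Single RPE cells of 2 mice (R1 and R2) were captured with 10x Genomics 3′ chemistry (the labels and the methods name different versions), and per the labels the authors ran bcl2fastq 2.20.0.422 and Cell Ranger 1.2.0 with GRCm38 (mm10). The deposited matrices hold whole-number UMI counts per gene and cell, not normalized. The same Cell Ranger output was filtered here to cells with at least 500 genes and at most 5% mitochondrial UMIs. In each mouse the top 4% by doublet score (share of artificial doublets, made by summing random cell pairs, among nearest neighbours) were removed. The authors' ambient RNA and doublet tools were not used. Cells were divided at 3% and 5% Ttr. Levels are UMIs per 10000 UMIs of a cell or of summed cells, and no cell was treated as a replicate.

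The members and gene lists were chosen with earlier results of these data known. The text names all members, Ttr, Mlana and Gpx3, up to 4 genes of each other list (most low-Ttr UMIs, or a defining marker at 0) with those needed for a count, and the 3 nearest genes by Jaccard index of members found in at least 5 R1 low-Ttr cells. Candidates for the nearest genes were likewise limited to genes found in at least 5 R1 low-Ttr cells. Other names, and further list genes such as Col18a1, Aqp1 and Zic5, were chosen after their values were seen. Some genes that these rules and lists select are not reported here.

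Summed counts were compared with edgeR 4.0.16 (R 4.3.3, TMM, filterByExpr, quasi-likelihood test, Benjamini-Hochberg adjustment) with the mouse as a block, since both sums of a mouse come from the same animal; across 11484 genes their deviations had a correlation of r = 0.041, given as a description. Tested on simulated sums of this comparison, a log2 change of 2 was recovered for 42 of 200 genes among 42 calls over 11023 genes. A change of 4 was recovered for 121 of 200 among 122 calls over 11018 genes, and no gene was called without a change. Of the recovered genes, 31 were raised and 11 lowered at a change of 2, and 91 and 30 at 4. The simulation gave all genes the same dispersion (0.0704) and no difference between mice, which real counts need not share. The SE printed with an edgeR log2 fold change is its absolute value over the square root of the quasi-likelihood F statistic. It was not estimated by the fit itself. DESeq2 1.42.0 served as an alternative. Counting used Python 3.11.15, NumPy 2.4.6, SciPy 1.17.1 and scikit-learn 1.9.0. Where nothing was counted, 3 UMIs served as the limit. Promoter windows came from RefSeq for 5 of the 10 members and gene spans from GENCODE. Rp1 is listed in 2 rows, which were added. With the mouse as a block, the p-values rest on how alike the low-Ttr against high-Ttr difference was in these 2 mice, with variance information shared across genes.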

Additional observations from a re-analysis of the deposited data

Results flagged for a closer look

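Member UMIs also occurred in cells that the filters left out. In R1, 13 member UMIs were counted in cells failing a quality filter, all of them in a single cell with 6.19% mitochondrial UMIs and 0.586% Ttr. That cell held 5 members (4 UMIs of Penk, 4 of Crhbp, 2 of Defb2, 2 of Wfdc1 and 1 of Msx1) with 48 UMIs of Gpx3 and 1 of Mlana, so it resembled the kept cells with 3 or more members in its counts. Among cells removed by the doublet score, R1 had 1 member UMI, of Defb2, in a cell with 7.32% Ttr and no Gpx3. In R2, 6 member UMIs were counted in such cells, all of Wfdc1, 3 in each of 2 cells with 12.5% and 6.80% Ttr and no Gpx3. The limit for a count of 0 is 3 UMIs, which the single Defb2 UMI does not exceed. The fitted log2 fold change of Defb2 was 12.52 with and 10.83 without doublet removal, the former resting on edgeR's prior count because no high-Ttr UMI was kept.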

How the results depend on the processing

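The 1206 genes called with the mouse as a block became 2241 without the replicate block, 728 with each cell thinned to 2000 UMIs and 796 without the cells with 3 or more members, and stayed within 1.5 times of 1206 under the other alternatives (927 to 1484). Higher calls made up 40.7% of 1206, 74.1% without TMM and 53.9% with DESeq2, with the median log2 change over all genes at -0.34, 0.38 and -0.34. Without a replicate no residual degrees of freedom remain, so the call count has no such value. The members were chosen on this contrast and pass the filter through their low-Ttr counts, so their calls across settings say nothing about stability. Wfdc1 was not called without the cells with 3 or more members (adjusted p of 0.16), with no filter on low counts (0.080) or without the fibroblast- and microglia-marked cells (0.19). It is a member too, and the marked cells held 2 and 1 of its 4 and 3 low-Ttr UMIs, so nothing is read from these losses. Both exclusions of cells were chosen after seeing the data. Pooled over both mice, 89.5% of member UMIs were in low-Ttr cells (80.8% to 93.9% with either mouse left out, 92.2% when thinned), 28.2% of low-Ttr cells held a member (22.0% to 47.4% with either mouse left out) and 59.1% of these held Mlana and Gpx3 (55.6% to 61.5% with either mouse left out, 45.5% with at least 2 UMIs of each). The 21 refitted genes included 7 members, so a count of alternatives over them says nothing about stability. None of the 21 changed direction where it was tested, but a gene that fell out of the test was not counted. Of the 7 members, 3 were still tested when thinned and 1 without the cells with 3 or more members. Slc12a2 was lost when thinned (-2.13, adjusted p of 0.071), and the causes were not tested. The number of low-Ttr cells, 59 and 19, limits every share.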

Other observations

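Beyond the fixed lists, the genes that stood higher in the cells with 3 or more members than in low-Ttr cells with none, in each mouse, included secreted and matrix genes. They were picked after their values were seen and carry no test. Ptgds, the lipocalin-type prostaglandin D synthase, was the most abundant, at a mean of 1418 and 785 UMIs per 10000 UMIs against 92.5 and 110 (R1 and R2), and it had UMIs in every low-Ttr cell with no member as well. Mfap4, a microfibril-associated glycoprotein, stood at 24.3 and 34.4 against 0.144 and 0, and Fbln1, a fibulin of elastic fibres and basement membranes, at 18.4 and 29.9 against 0.084 and 0.986. Slc6a13, a GABA and taurine transporter, was at 14.3 and 10.7 against 0.842 and 0. Npvf, the precursor of RFamide-related peptides, was counted in 3 of 8 and 3 of 6 of these cells and in no low-Ttr cell with no member.

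In the opposite direction, Serpina3n, a secreted protease inhibitor, stood at 0.377 and 0.392 UMIs per 10000 UMIs against 9.18 and 10.7, Map1b, a microtubule-associated protein, at 0.377 and 0.365 against 8.77 and 8.96, and Krt18, a simple-epithelium keratin, at 2.35 and 1.03 against 19.4 and 12.8.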
